A study of Bos taurus with 48 samples.

Results

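The miR-99, miR-100 and miR-125 family was followed in bovine mammary parenchyma, mammary fat pad and liver. Its members were taken by name: every row called bta-miR-99a or bta-miR-99b on any arm, bta-miR-100, bta-miR-125a, and bta-miR-125b with any copy number. The rule found 7 of the 524 miRNAs in the table. They were miR-99a-5p, miR-99a-3p, miR-99b, miR-100, miR-125a, miR-125b-1 and miR-125b-2. The rows miR-125b-1 and miR-125b-2 are copies of one mature miRNA whose values differed by at most 1.62% in any library, so miR-125b-2 stands for both and 6 members are counted below. The other 5 members beside miR-99a-3p are called the 5 listed members.

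The 48 samples carried 3 tissue labels and 3 feeding labels. Mammary parenchyma, the part of the gland with the epithelial ducts, had 6 samples of animals given milk replacer ad libitum, 6 given a restricted amount of it and 3 labelled control. The mammary fat pad had 6, 6 and 4 such samples, and the liver 6, 6 and 5. The labels give no breed, age, genotype or control diet, and the tissues were taken at slaughter. The ad libitum and restricted groups together are called the milk replacer samples.

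Values are read counts scaled by the authors, each library by its own size factor. The table gave an estimated 6193678 to 11291532 reads per parenchyma library, 2123962 to 9522666 per fat pad library and 826776 to 5146724 per liver library. A value of 0 can hide up to 5 reads, but the 6 members were above 0 in all 48 libraries. The labels do not say whether the samples of a group came from separate animals, so the p-values measure the spread between these samples, part of which may be technical. In tissue RNA, fewer cells of a type and less RNA per cell cannot be told apart.

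The 3 control parenchyma libraries stood apart from the other parenchyma libraries. The sum of 10 epithelial miRNAs (the miR-200 and miR-183 families, miR-205 and miR-375) was 92.5 to 421 in the control libraries, with miR-429 and miR-375 listed at 0 in all 3. It was 61371 to 110903 in the 12 milk replacer libraries, with no marker at 0 in all of them, and 17.4 to 436 in the whole fat pad. The sum of 6 immune cell miRNA rows was 92034 in control parenchyma replicate 18 and 3959 and 5040 in the other 2 control libraries, against 6256 to 15231 in milk replacer parenchyma. Tissue comparisons were therefore also made among the milk replacer samples alone. The 4 hepatocyte miRNAs summed to at least 884709 in each liver library and to at most 11903 in each mammary library.

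MicroRNAs bind messenger RNAs mainly through the seed, bases 2 to 8 of the mature strand, and lower their translation or stability. The mature strands of miR-99a, miR-99b and miR-100 have the same seed and belong to an ancient miRNA family, which is known for repressing MTOR, a kinase of cell growth. The miR-125 strands have another seed, that of the worm miRNA lin-4, and are known for repressing LIN28, an inhibitor of let-7 maturation. Their hairpins lie in clusters that also hold a let-7 hairpin. In the RefSeq annotation of the cow genome, MIR125B-2, MIRLET7C and MIR99A followed each other in this order, as did MIR125B-1, MIRLET7A-2 and MIR100, and MIR99B, MIRLET7E and MIR125A.

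The sequence of miR-100, given as assay and canonical sequence in the study's supplement, is shown because its seed is the feature that ties the miR-99 and miR-100 members together. The capitals mark bases 2 to 8, and the 22 letters are written with T for U.
miR-100: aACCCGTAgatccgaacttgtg
The other members were described by name only. The mature strands of miR-99a and miR-100 are nearly identical outside the seed as well, and how the reads were divided between them is not given in the sources used here.

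One member, miR-99a-5p, made up most of the family and was the most abundant miRNA of both mammary tissues. Its normalized value was 580278 ± 135861 in parenchyma, 758169 ± 201193 in the fat pad and 143135 ± 55510 in the liver (SD, n = 15, 16 and 17). It ranked first in all 16 fat pad libraries and in 13 of 15 parenchyma libraries. In control parenchyma replicates 2 and 18 it had ranks 3 and 4, and miR-143 was first. In the liver it was never first and ranked between 6 and 15, and miR-148a, miR-122 or miR-192 led there.

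The share of miR-99a-5p among the summed values of all miRNAs was 16.6% ± 3.46 in parenchyma, 16.0% ± 3.91 in the fat pad and 2.70% ± 1.08 in the liver (SD, n = 15, 16 and 17). The lowest, median and highest shares were 7.60%, 17.4% and 22.6% for parenchyma, 10.4%, 15.3% and 24.8% for the fat pad, and 1.26%, 2.34% and 4.93% in the liver. The lowest mammary share was above the highest liver share. The lowest parenchyma value, 286504 in control replicate 18, was likewise above the highest liver value, 249230.

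Together the 5 listed members took 20.2% ± 3.91 of the summed values in parenchyma, 19.1% ± 4.34 in the fat pad and 4.06% ± 1.26 in the liver (SD, n = 15, 16 and 17). The sum counts rows that are copies of each other more than once. With 1 row per group of copies the shares became 22.7%, 21.9% and 4.44%. Within the 5 listed members miR-99a-5p held 82.0% ± 3.15 of the values in parenchyma, 83.5% ± 2.56 in the fat pad and 64.9% ± 6.48 in the liver (SD). The 4 others together took 3.62% ± 0.777, 3.11% ± 0.655 and 1.36% ± 0.253 of all values (SD).

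**Figure D1:**
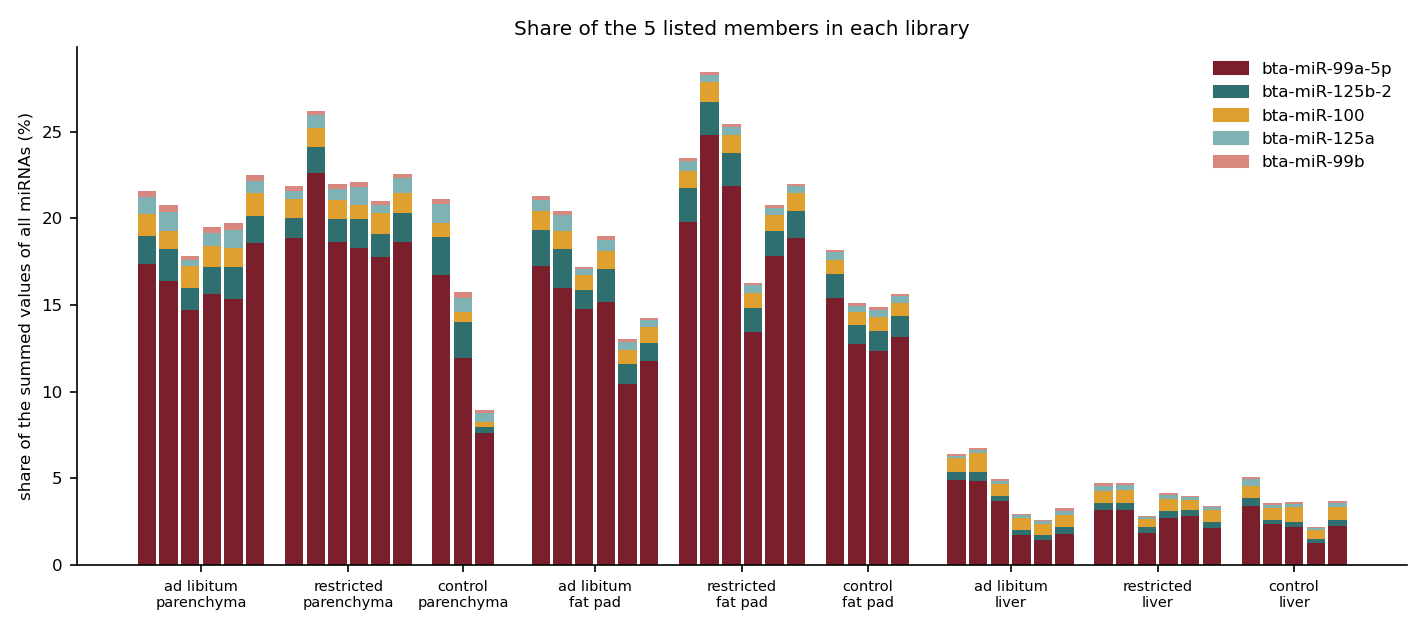
Share of the 5 listed members in the summed values of all miRNAs (vertical axis, percent), 1 stacked bar per library, grouped by feeding label and tissue. The bars reach 8.94% to 28.5% in the mammary libraries and 2.17% to 6.77% in the liver, and miR-99a-5p fills most of each bar.

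The order of the members differed between the mammary gland and the liver. In all 16 fat pad libraries miR-99a-5p was followed by miR-125b-2, miR-100, miR-125a and miR-99b. In all 17 liver libraries miR-100 stood above miR-125b-2, and the rest of the order was the same. In parenchyma 9 of 15 libraries had the order of the fat pad, 4 had miR-125a above miR-100, 1 had the order of the liver, and in 1, control replicate 18, miR-125a came second. Mature miRNAs are of about the same length, so values were compared between them without scaling by length.

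miR-125b-2 had normalized values of 54136 ± 19845 in parenchyma, 72180 ± 17615 in the fat pad and 18651 ± 3647 in the liver (SD, n = 15, 16 and 17). Its lowest, median and highest values were 13768, 53088 and 100048 in parenchyma. They were 47884, 72414 and 98285 in the fat pad and 12945, 18584 and 25798 in the liver. The fat pad and the liver did not overlap, and the single parenchyma library within the liver range was control replicate 18.

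By the authors' size factors miR-100 was at a similar level everywhere, with 35325 ± 9866 in parenchyma, 43937 ± 5664 in the fat pad and 36948 ± 6064 in the liver (SD, n = 15, 16 and 17). Its lowest, median and highest values were 10304, 38060 and 50018 for parenchyma, 36383, 43760 and 54629 for the fat pad, and 27110, 36705 and 54930 in the liver. These 3 ranges overlapped widely. As a share of the summed values, miR-100 ranged from 0.273% to 1.36% in parenchyma, 0.732% to 1.14% in the fat pad and 0.458% to 1.07% in the liver.

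miR-125a had values of 26939 ± 9827 in parenchyma, 22609 ± 5640 in the fat pad and 10695 ± 2823 in the liver (SD, n = 15, 16 and 17). All fat pad libraries, at 16308 or more, were above the highest liver library, at 16156. In parenchyma the range was 11602 to 51674.

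miR-99b, the least abundant of the 5 listed members, had values of 10315 ± 2464 in parenchyma, 7497 ± 996 in the fat pad and 5617 ± 1265 in the liver (SD, n = 15, 16 and 17). The neighbouring tissues in this order overlapped, at 6843 to 15717, 5962 to 9636 and 3493 to 7655.

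miR-99a-3p, the strand opposite miR-99a-5p in the same hairpin, was far rarer, at 633 ± 205 in parenchyma, 438 ± 119 in the fat pad and 179 ± 84.9 in the liver (SD, n = 15, 16 and 17). It ranked 153, 151 and 190 of 501 miRNAs by mean, counting each group of copies once, while the 5p strand ranked 1, 1 and 9.

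**Figure D2:**
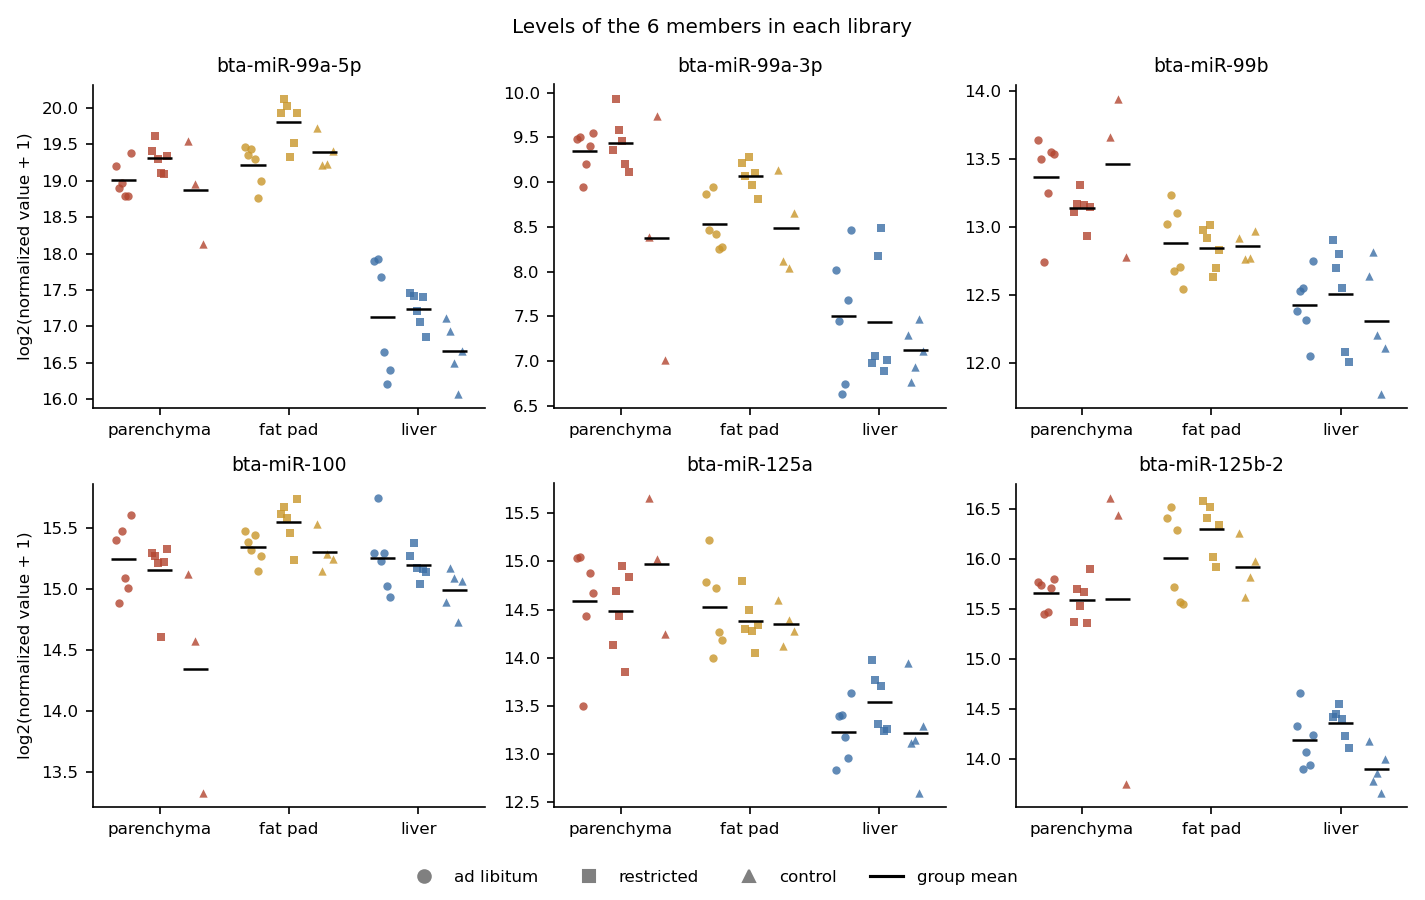
Level of each of the 6 members on the log2(normalized value + 1) scale (vertical axis), 1 point per library by tissue and feeding label, with a line at each group mean. Liver points lie below the mammary points for miR-99a-5p, and for miR-125b-2 except 1 control parenchyma library within the liver range. For miR-100 they lie among the mammary points, and 1 control parenchyma library is low for most members.

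The tissues were compared with limma on log2(value + 1), with Benjamini-Hochberg adjusted p over all miRNAs tested and a threshold of 0.05. Between the fat pad and the liver all 6 members were higher in the fat pad. Of the 325 miRNAs tested there, 41.2% were called higher in the fat pad and 36.3% lower. miR-99a-5p was 5.51-fold higher (log2 difference 2.46 ± 0.16, SE; adjusted p = 6.21e-16) and miR-125b-2 was 3.83-fold higher (1.94 ± 0.11; adjusted p = 1.68e-17). miR-99a-3p, miR-125a and miR-99b followed with log2 differences of 1.36, 1.09 and 0.44. The smallest difference was that of miR-100, at 0.26 ± 0.08 (adjusted p = 0.00313), a 1.19-fold higher level. The median log2 difference of all miRNAs tested was 0.20.

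Between parenchyma and liver 5 of the 6 members were higher in parenchyma and none was lower. Over the 343 miRNAs tested, 44.9% were called higher in parenchyma and 29.7% lower, with a median log2 difference of 0.36. miR-99a-5p was 4.23-fold higher (log2 difference 2.08 ± 0.17, SE; adjusted p = 7.63e-13). miR-99a-3p, miR-125b-2, miR-125a and miR-99b were higher by 1.83, 1.46, 1.29 and 0.88 on the log2 scale. miR-100 did not pass the test, at -0.13 ± 0.15 (adjusted p = 0.449; 95% interval -0.43 to 0.17). After the libraries were rescaled to equal sums, miR-100 was higher in parenchyma by 0.48 (adjusted p = 0.00741), while the median of all miRNAs moved from 0.36 to 0.82. So the direction for miR-100 in parenchyma against liver depended on the scale, and the other 5 members kept theirs.

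Between parenchyma and fat pad the members went different ways. Of the 336 miRNAs tested, 46.7% were called higher in parenchyma and 31.2% lower, with a median log2 difference of 0.41. miR-99b was higher in parenchyma by 0.43 ± 0.11 (SE; adjusted p = 0.000472) and miR-99a-3p by 0.47 ± 0.20 (adjusted p = 0.0387). miR-99a-5p was lower in parenchyma by 0.38 (log2 difference -0.38 ± 0.13, SE; adjusted p = 0.0114), miR-100 by the same amount (-0.38 ± 0.15; adjusted p = 0.0181), and miR-125b-2 by somewhat more (-0.48 ± 0.18; adjusted p = 0.0159). miR-125a did not pass, at 0.20 ± 0.16 (adjusted p = 0.252; 95% interval -0.12 to 0.52). Thus the 2 strands of the miR-99a hairpin were called in opposite directions by the authors' size factors, which the scale below changed for the 5p strand.

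The 3 lower calls depended on the scale. With every library rescaled to the same sum, the median of all miRNAs moved from 0.41 to 0.77, and miR-99a-5p, miR-100 and miR-125b-2 stood at 0.06, 0.06 and -0.04 (adjusted p = 0.698, 0.757 and 0.847). On that scale miR-99b, miR-99a-3p and miR-125a were higher in parenchyma by 0.87, 0.90 and 0.64 (adjusted p = 3.56e-08, 0.000381 and 0.000635). By the authors' size factors miR-99b and miR-99a-3p, at 0.43 and 0.47, were above the median of 0.41 by less than their SE. The other 4 members were below the median. Rescaling moves the members and the median nearly together, so the positions relative to the median on the second scale are no separate check.

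By the authors' size factors the same 5 members were called in the same directions without the control samples. Among the 24 milk replacer libraries alone, miR-99b and miR-99a-3p were higher in parenchyma by 0.39 and 0.59 (limma adjusted p = 0.00124 and 0.000247). miR-99a-5p, miR-100 and miR-125b-2 differed by -0.35, -0.25 and -0.53 (adjusted p = 0.0189, 0.0225 and 0.000235). After rescaling, however, miR-100 was called higher in parenchyma among these libraries, at 0.22 (adjusted p = 0.0126), which it was not over all samples (0.06, adjusted p = 0.757). In the comparison over all samples, the call of miR-99a-3p was lost in 15 of the 31 fits that each left out 1 library, with adjusted p up to 0.0676. Its log2 difference was between 0.41 and 0.62 over the 31 fits.

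**Figure D3:**
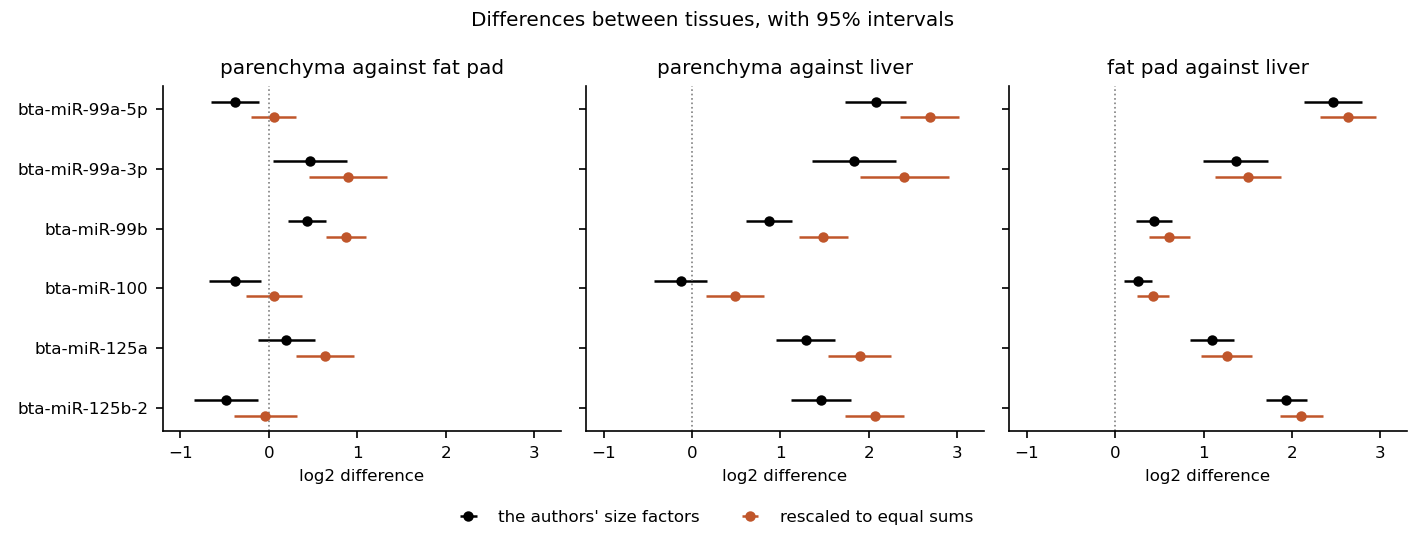
Log2 differences between tissues for the 6 members (horizontal axis) with 95% intervals from limma, by the authors' size factors and after rescaling to equal sums. Between the mammary tissues and the liver nearly all intervals lie above 0, and between parenchyma and fat pad the intervals of miR-99a-5p, miR-100 and miR-125b-2 lie below 0 on the first scale and across 0 on the second.

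Ratios between members of 1 library do not depend on the size factor. They were tested with two-sided permutation tests, 15 for tissues, and adjusted over those 15. The ratio of miR-99a-5p to miR-100, members with the same seed, was 17.3 ± 4.47 in parenchyma, 17.1 ± 2.83 in the fat pad and 3.803 ± 1.11 in the liver (SD, n = 15, 16 and 17). It ranged from 11.3 to 27.8 in all mammary libraries and from 2.26 to 6.06 in the liver, with no overlap. The log2 ratio was higher by 2.21 in parenchyma than in the liver, and likewise by 2.21 in the fat pad (permutation test, p = 2e-05 for each, the smallest that 100000 resamples can give; adjusted p = 3.33e-05). Between parenchyma and fat pad the log2 ratio differed by 0.000592 (permutation p = 0.994), so the means of the log2 ratio were nearly equal. Among the milk replacer samples alone the difference was -0.11 (adjusted p = 0.351).

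The ratio of miR-100 to miR-125b-2 separated the liver from both mammary tissues in every library. It was 2.02 ± 0.324 in the liver, with a range of 1.54 to 2.62, against 0.704 ± 0.215 for parenchyma and 0.630 ± 0.103 for the fat pad (SD, n = 17, 15 and 16). The highest mammary ratio was 1.02. The log2 differences were -1.58 for parenchyma and -1.68 for the fat pad against the liver (permutation p = 2e-05 for each, adjusted p = 3.33e-05), and 0.10 between the mammary tissues (adjusted p = 0.555). Among the milk replacer samples alone the mammary difference was 0.29 and passed (adjusted p = 0.031).

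The ratio of miR-99a-5p to miR-99b, again members with the same seed, ordered all 3 tissues. It was 101 ± 24.5 in the fat pad, 58.4 ± 16.8 in parenchyma and 25.8 ± 9.49 in the liver (SD, n = 16, 15 and 17), and each difference passed (permutation p = 2e-05, adjusted p = 3.33e-05). Parenchyma lay 0.82 lower than the fat pad on the log2 scale, with overlapping libraries, at 32.3 to 87.5 and 67.0 to 148.

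The ratio of miR-125a to miR-125b-2, members with the same seed, was lowest in the fat pad. It was 0.319 ± 0.0553 there, 0.541 ± 0.260 in parenchyma and 0.578 ± 0.126 in the liver (SD, n = 16, 15 and 17). The fat pad was lower than parenchyma by 0.68 and than the liver by 0.85 on the log2 scale (permutation test, adjusted p = 6e-05 and 3.33e-05). Parenchyma and liver differed by -0.17 (adjusted p = 0.331). The highest parenchyma ratio, 1.41, was that of control replicate 18.

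The ratio of miR-99b to miR-125a, whose hairpins lie in 1 cluster, had the smallest span of tissue differences among the 5 ratios. It was 0.408 ± 0.0939 in parenchyma, 0.340 ± 0.0448 in the fat pad and 0.539 ± 0.114 in the liver (SD, n = 15, 16 and 17). On the log2 scale the fat pad was 0.65 below the liver and parenchyma 0.41 below it (permutation test, adjusted p = 3.33e-05 and 0.00115). Parenchyma exceeded the fat pad by 0.24 (adjusted p = 0.0303). In all, 12 of the 15 tissue tests passed. Among the milk replacer samples alone 13 passed.

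The rare 3p strand of miR-99a was counted at 1.10 ± 0.349 per 1000 of the 5p strand in parenchyma, 0.584 ± 0.103 in the fat pad and 1.47 ± 0.988 in the liver (SD, n = 15, 16 and 17). In the 12 milk replacer parenchyma libraries the number was 0.836 to 1.49, and in the fat pad 0.424 to 0.757, with no overlap. Control parenchyma replicates 1 and 18, at 0.435 and 0.446, were within the fat pad range, and replicate 2, at 1.67, was above it. The liver range was 0.468 to 4.10. These values were chosen after the strands had been seen to differ and were not tested.

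**Figure D4:**
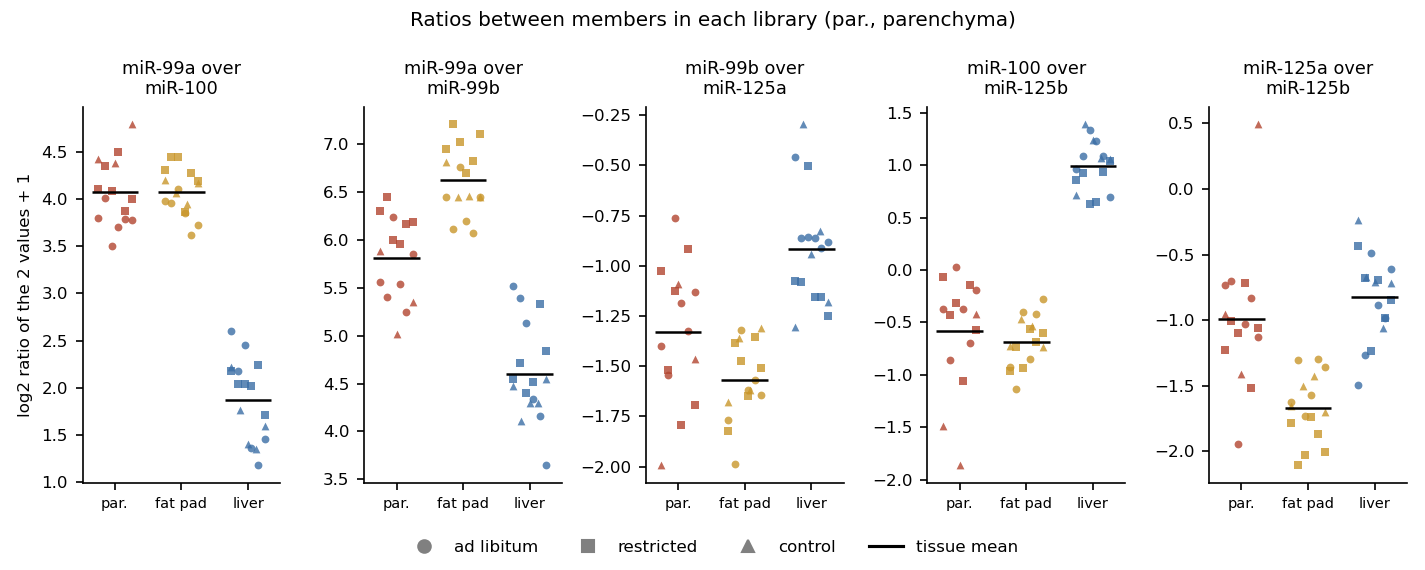
Log2 ratios between members (vertical axes, each with its own range), 1 point per library by tissue and feeding label, with a line at the tissue mean. The liver points lie apart from both mammary tissues for miR-99a over miR-100 and for miR-100 over miR-125b, and the mammary points of these ratios overlap.

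Each member was then set beside the let-7 miRNA of its own cluster. The let-7 family is known for repressing growth and stem cell genes. let-7c, whose hairpin lies between those of miR-125b-2 and miR-99a, had values of 17471 ± 5963 in parenchyma, 40228 ± 7733 in the fat pad and 4382 ± 1309 in the liver (SD, n = 15, 16 and 17). By the authors' size factors it was, like its neighbours, highest in the fat pad and lowest in the liver. After rescaling its neighbours were not called between parenchyma and fat pad, while let-7c was. It was lower in parenchyma than in the fat pad by 1.32 on the log2 scale (-1.32 ± 0.21, SE; limma adjusted p = 1.12e-06), and 0.88 lower after rescaling (adjusted p = 0.000647). miR-99a-5p was 39.4 ± 22.2 times as high as let-7c in parenchyma, 18.8 ± 2.96 times in the fat pad and 34.6 ± 13.5 times in the liver (SD). Control parenchyma replicate 18 stood at 112, and in the 12 milk replacer parenchyma libraries the ratio was 33.2 ± 9.55, against 34.0 ± 12.7 in the 12 milk replacer liver libraries (SD), so the higher parenchyma mean rested on the controls. Among milk replacer samples let-7c was 1.16 lower in parenchyma than in fat pad tissue (limma adjusted p = 9.74e-10).

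let-7e differed most from its neighbours miR-99b and miR-125a. Its values were 1785 ± 1330 in parenchyma, 7272 ± 961 in the fat pad and 1483 ± 878 in the liver (SD, n = 15, 16 and 17). It was lower in parenchyma than in the fat pad by 2.22 (-2.22 ± 0.18, SE; limma adjusted p = 1.28e-11), where miR-99b was higher by 0.43. The ratio of miR-99b to let-7e was 7.02 ± 2.49 in parenchyma, 1.04 ± 0.124 in the fat pad and 4.93 ± 2.58 in the liver (SD). Its range was 3.15 to 9.66 in milk replacer parenchyma, 2.03 to 11.3 in the 3 control parenchyma libraries and 0.840 to 1.23 in the fat pad, with no overlap of the fat pad with either. Among milk replacer samples let-7e differed by -2.25 between parenchyma and fat pad. Rescaling left let-7e lower, at -1.78 (adjusted p = 4.15e-10).

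let-7a-2-5p, beside miR-100 and miR-125b-1, had values of 43305 ± 13242 in parenchyma, 97592 ± 8682 in the fat pad and 48037 ± 13729 in the liver (SD, n = 15, 16 and 17). Its mature strand comes from several hairpins, which cannot be told apart in these values. It was lower in parenchyma than in the fat pad by 1.24 (-1.24 ± 0.12, SE; limma adjusted p = 3.9e-10), and miR-100 by 0.38. Against the liver its difference in parenchyma was -0.16 (adjusted p = 0.361), and miR-100 had -0.13. After rescaling let-7a-2-5p was called higher in parenchyma than in the liver, at 0.45 (limma adjusted p = 0.0162), as was miR-100.

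All 9 let-7 and miR-98 rows of the 5p or only listed strand, counting copies once, were lower in parenchyma than in the fat pad, by 0.80 to 2.22 on the log2 scale, and all 9 were lower after rescaling, with a median of -0.89. By the authors' size factors 31.2% of all miRNAs tested in this comparison were lower. Between fat pad and liver 7 of the 9 were higher in the fat pad and none was lower, where 41.2% of all miRNAs were higher and 36.3% lower. Between parenchyma and liver 2 of the 9 were higher in parenchyma and 3 lower by the authors' size factors, where 44.9% of all were higher and 29.7% lower. Rescaling turned this to 5 higher and 2 lower, while the median log2 difference of all miRNAs moved from 0.36 to 0.82. The shares of all miRNAs called after rescaling were not counted in either comparison of parenchyma. Thus the 3 let-7 neighbours were called lower in parenchyma than in the fat pad on both scales, whereas no member was.

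**Figure D5:**
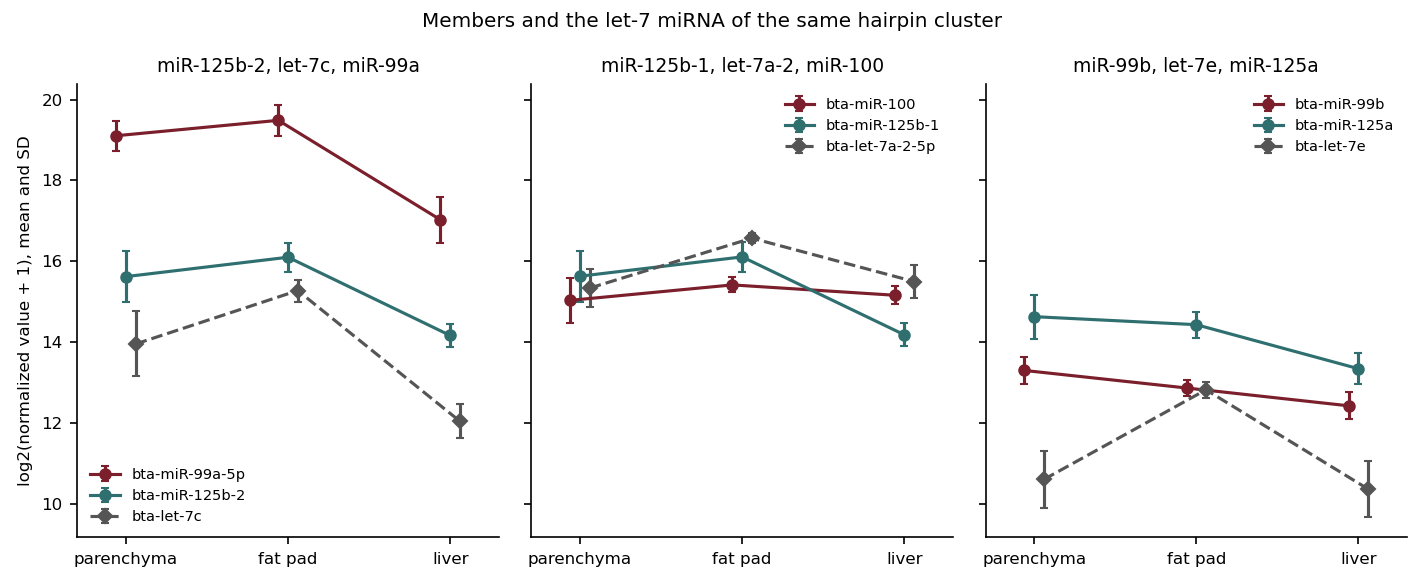
Mean log2(normalized value + 1) with SD over the libraries of each tissue (vertical axis) for the members and the let-7 miRNA of the same hairpin cluster, 1 cluster per panel. The dashed let-7 lines drop more steeply from fat pad to parenchyma than the members' lines, most of all for let-7e beside miR-99b and miR-125a.

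miR-10a and miR-10b are relatives with a similar 5′ end, and miR-10b showed larger differences between all pairs of tissues than any member. miR-10b had values of 41557 ± 35360 in parenchyma, 121828 ± 22796 in the fat pad and 844 ± 541 in the liver (SD, n = 15, 16 and 17). The parenchyma mean was raised by the 3 control libraries, at 146029, 66166 and 95269 in replicates 1, 2 and 18, and was 26324 ± 5351 in the 12 milk replacer libraries (SD). Its log2 difference was 7.36 between fat pad and liver, 5.53 between parenchyma and liver and -1.83 between parenchyma and fat pad (limma adjusted p = 4.94e-28, 1.37e-18 and 1.1e-08). miR-10a had 2.85, 0.85 and -1.997 in these comparisons. Among milk replacer samples miR-10b had 7.28, 5.12 and -2.15, and miR-10a 2.77, 0.49 and -2.28. Relative to miR-100, miR-10b was more abundant in every fat pad library, where the ratio of miR-100 to miR-10b was 0.267 to 0.640, and less abundant in every liver library, at 16.5 to 130.

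The feeding groups were compared within each tissue. In the fat pad miR-99a-5p was the only member called between ad libitum and restricted feeding, and 16.6% of the 301 miRNAs tested there were called. Its lowest, median and highest values were 447241, 656449 and 722173 in the 6 ad libitum libraries and 657534, 997446 and 1141740 in the 6 restricted libraries. The control libraries had 870738, 608892, 617218 and 699760. The restricted libraries lay mostly above the ad libitum ones, with 1 restricted library inside their range. The log2 difference was -0.59 ± 0.15 (SE; limma adjusted p = 0.0163), a 1.51-fold lower level with ad libitum feeding. After rescaling it was -0.45 (adjusted p = 0.0374), and without each of the 16 libraries in turn it stayed called, from -0.69 to -0.50. The adipocyte-linked miR-378-2 was at 57025 to 83145 with ad libitum and 28254 to 64519 with restricted feeding in the fat pad, and the stromal and smooth muscle sum at 497190 to 683428 and 498654 to 814376. Their part in the difference of miR-99a-5p was not tested.

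The share of miR-99a-5p in the fat pad was 14.2% ± 2.60 with ad libitum feeding, 19.4% ± 3.85 with restricted feeding and 13.4% ± 1.36 in the controls (SD, n = 6, 6 and 4). The 3p strand of the same hairpin had 304 to 491 in the ad libitum libraries and 447 to 622 in the restricted ones. Its log2 difference was -0.54 ± 0.18 (SE; limma adjusted p = 0.0535) and did not pass. In a fit of the 12 milk replacer libraries alone it passed with the same difference (adjusted p = 0.024), and after rescaling it did not (-0.39, adjusted p = 0.125). The other 4 members had adjusted p of 0.152 and above, and miR-100 stood at -0.21 (adjusted p = 0.152).

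Ratios between members were tested for feeding as well, in 30 tests, and in the fat pad the lowest p came from miR-125a over miR-125b-2 and miR-99a-5p over miR-99b. The log2 ratio of miR-125a to miR-125b-2 was -1.48 on average with ad libitum and -1.92 with restricted feeding, and the 6 libraries of each group did not overlap (exact permutation test, two-sided, p = 0.00216, the smallest that 6 against 6 libraries allow; adjusted p = 0.0649). The ratio of miR-99a-5p to miR-99b was lower with ad libitum feeding by 0.63 (-0.63 on the log2 scale, exact permutation p = 0.00433, adjusted p = 0.0649). In parenchyma the ratio of miR-99a-5p to miR-100 was 13.6 ± 1.57 with ad libitum and 18.0 ± 2.96 with restricted feeding (SD, n = 6 each; exact permutation p = 0.00649, adjusted p = 0.0649). None of the 30 tests passed after adjustment.

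In parenchyma no member was called between ad libitum and restricted feeding, and 0% of the 339 miRNAs tested were. No member and none of the 339 had an unadjusted p under 0.05 in this limma fit, whose spread includes the 3 control libraries. In a fit of the 12 milk replacer libraries alone miR-99a-5p had a log2 difference of -0.31 ± 0.12 (SE; adjusted p = 0.9). Its lowest, median and highest values were 454222, 502205 and 685313 with ad libitum feeding and 561503, 654612 and 805704 with restricted feeding, and the ranges overlapped. In the liver no member was called either, with 0.324% of 309 miRNAs called and no member at an unadjusted p under 0.05. There miR-99a-5p was at 75388 to 249230 with ad libitum and at 118024 to 179708 with restricted feeding. Whether the difference between ad libitum and restricted feeding itself differed between the 3 tissues was tested by a moderated F test over all 48 samples. It called 0% of 345 miRNAs, 18 of them had an unadjusted p under 0.05, and miR-99a-5p had an adjusted p of 0.999. The difference seen in the fat pad was thus not shown to be particular to that tissue.

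In parenchyma milk replacer was set against control, a comparison that rests on the 3 control libraries low in epithelial miRNAs. There 45.4% of 339 miRNAs were called. miR-100 was higher in the milk replacer samples by 0.86 ± 0.29 (SE; limma adjusted p = 0.0207) and miR-99a-3p by 1.02 ± 0.38 (adjusted p = 0.0382). The control libraries had miR-100 values of 35628, 24398 and 10304 in replicates 1, 2 and 18, against 25013 to 50018 in the 12 milk replacer libraries, so 2 of 3 were below all of them. For miR-99a-3p the control values were 334, 851 and 128, against 492 to 972. For miR-125b-2 they were 100048, 88879 and 13768, on both sides of the milk replacer range of 42191 to 61184.

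These calls rested on replicate 18, the control library with the high immune cell sum. Without it miR-100 was at 0.35 (adjusted p = 0.24) and miR-99a-3p at 0.33 (adjusted p = 0.413), while miR-125b-2 became lower in the milk replacer samples by 0.90 (log2 difference -0.90, adjusted p = 0.000673). With it miR-125b-2 was at 0.02 (adjusted p = 0.963). Leaving out control replicate 1 instead raised miR-99a-5p from 0.28 (adjusted p = 0.301) to 0.62 (adjusted p = 0.0187) and ended the call of miR-99a-3p (1.02, adjusted p = 0.0761), which was also lost without ad libitum replicate 3, 6 or 15 or restricted replicate 5 or 8 (adjusted p of 0.0525 to 0.0556). After rescaling miR-99a-5p was also called, at 0.62 (adjusted p = 0.00534), while the median of all miRNAs moved from 0.13 to 0.42. The endothelial miR-126 rows summed to 172748 to 426786 in control and 52569 to 106702 in milk replacer parenchyma, the stromal and smooth muscle list to 618255 to 945989 and 371599 to 510404. The adipocyte-linked miR-378-2 was at 80478, 81687 and 8370 in the controls and at most 15227 in the milk replacer libraries. Feeding and these differences in tissue markers cannot be told apart in this comparison. The 5 listed members took 21.1%, 15.8% and 8.94% of the summed values in control replicates 1, 2 and 18, against 20.3% ± 1.67 with ad libitum and 22.6% ± 1.83 with restricted feeding (SD, n = 6 each).

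In the fat pad no member was called between milk replacer and control (11% of 301 miRNAs called; 0 of 6 members with an unadjusted p under 0.05 in limma). After rescaling miR-100 was called, at 0.32 (adjusted p = 0.025), against 0.14 by the authors' size factors. Rescaling moved the median of all miRNAs there from -0.014 to 0.16, a shift of similar size. In the liver no member was called (6.8% of 309 called). miR-125b-2 alone had an unadjusted p under 0.05, at a log2 difference of 0.38 ± 0.15 (SE; adjusted p = 0.171), with control values of 18584, 14085, 14795, 12945 and 16403 and milk replacer values of 15236 to 25798. The tissue difference of milk replacer against control was called for 39.7% of 345 miRNAs and for 1 member, miR-100 (moderated F = 4.41, adjusted p = 0.0457). Without control parenchyma replicate 18 its adjusted p was 0.744, and the call was lost in 26 of the 48 fits that each left out 1 library.

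miR-99b and miR-125a, of 1 cluster, varied together in all 3 tissues. Relations were computed over the 16 fat pad, the 17 liver and the 12 milk replacer parenchyma libraries, 39 in all, with permutation p adjusted over the 39. They had a Pearson r of 0.81 in parenchyma, 0.84 in the fat pad and 0.69 in the liver (permutation test, adjusted p = 0.00452, 0.00078 and 0.00759). Spearman's rho was 0.68, 0.87 and 0.62 (permutation test, adjusted p = 0.0485, 0.00117 and 0.0301), and r without the 2 libraries farthest from the median of miR-99b was 0.63, 0.79 and 0.60. With the mean of each feeding group subtracted, r was 0.85, 0.85 and 0.69. miR-125a and miR-125b-2, from different clusters, had r of 0.81 in parenchyma, 0.74 in the fat pad and 0.55 in the liver (permutation test, adjusted p = 0.00368, 0.00368 and 0.0514), with rho of 0.73, 0.82 and 0.60 (adjusted p = 0.0298, 0.00409 and 0.0378). Without the 2 farthest libraries these r were 0.81, 0.68 and 0.37. The other pairs within a cluster did not pass in parenchyma. miR-99a-5p and miR-125b-2 had r of 0.17 there, 0.76 in the fat pad and 0.65 in the liver (permutation test, adjusted p = 0.734, 0.00368 and 0.0176). miR-100 and miR-125b-2 had -0.0031, 0.82 and 0.60 (adjusted p = 0.993, 0.00221 and 0.026). The liver result of this pair was not stable, with rho of 0.47 (permutation test, adjusted p = 0.132) and r of 0.21 without the 2 farthest libraries. With the mean of each feeding group subtracted its r there was 0.50 (adjusted p = 0.0714), and after rescaling 0.68 (adjusted p = 0.00516). miR-99b and miR-125b-2, from different clusters, had 0.62, 0.80 and 0.53 (adjusted p = 0.0721, 0.00253 and 0.0685). After rescaling this pair passed in each tissue, at 0.75, 0.78 and 0.61 (permutation test, adjusted p = 0.0125, 0.00109 and 0.0225). miR-125a and miR-125b-2 then passed in the liver as well, at 0.71 (adjusted p = 0.00472).

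miR-99a-5p and miR-100, of different clusters with the same seed, had r of 0.85 in the fat pad and 0.74 in the liver (permutation test, adjusted p = 0.00136 and 0.00286; rho 0.79 and 0.74, adjusted p = 0.00452 and 0.00635), and 0.79 and 0.58 without the 2 farthest libraries. In parenchyma r was 0.45 (adjusted p = 0.252). With the means of the feeding groups subtracted, r was 0.81 in the fat pad, 0.69 in the liver and 0.70 in parenchyma (permutation test, adjusted p = 0.000936, 0.00733 and 0.0283). After rescaling it was 0.73, 0.68 and -0.20. With its cluster neighbour let-7c, miR-99a-5p had r of 0.77 in the fat pad (permutation test, adjusted p = 0.00286; rho 0.75, adjusted p = 0.00635; 0.70 without the 2 farthest). It had 0.13 in the liver (adjusted p = 0.755) and -0.35 in parenchyma (adjusted p = 0.378). For miR-99b and let-7e r was 0.61 in the fat pad (permutation test, adjusted p = 0.0316; rho 0.63, adjusted p = 0.0342) and -0.59 in the liver (permutation test, adjusted p = 0.0322; rho -0.66, adjusted p = 0.0205). Without the 2 farthest libraries these were 0.57 and -0.52, and with the means of the feeding groups subtracted 0.68 and -0.63. After rescaling r was 0.78 in the fat pad and -0.47 in the liver (adjusted p = 0.0927). miR-100 and let-7a-2-5p had r of -0.13 in parenchyma, 0.09 in the fat pad and 0.23 in the liver, and none passed. All values of a library share its size factor.

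Outside the family, the miRNAs most like each member were found by Pearson r of log2(value + 1) over the 48 samples after the mean of each of the 9 groups was subtracted, among 338 miRNAs, as a description. For miR-99a-5p they were miR-24 (r = 0.60) and miR-331-5p (0.58), and for miR-100 miR-10a (0.65) and miR-10174-3p (0.59). For miR-125b-2 they were miR-214 (0.73) and let-7c (0.71), for miR-125a miR-328 (0.85) and miR-1343-3p (0.79), for miR-99b miR-423-3p (0.73) and miR-1306 (0.73), and for miR-99a-3p miR-339a (0.75) and miR-30a-5p (0.74). The deviations of the 3 control parenchyma libraries are part of these correlations.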

How the data were processed

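Small RNA of 48 bovine samples was sequenced from adaptor-ligated libraries. The deposited table gives, per the labels and its own values, read counts per mature miRNA, which the authors scaled library by library with a size factor (a normalized count, treated as another unit). Every value of a library was a whole multiple of its own step (within 0.01), and the smallest above 0 was 6 steps. The steps were summed to estimate reads, and no count test was run. The lines carry an extra set of quotes, which hid the columns from the routine test of units, so the unit rests on reading the table itself. DESeq2, Trim Galore, FastQC and bcl2fastq appear in the submitters' processing notes. The study's methods name miRDeep2, sRNAbench and UEA sRNA Workbench, with miRBase and a UMD build of the cow genome, for its own comparison of programs. They do not say that the deposited table was made with any of these, so its read-assigning program, build and database version are unknown here. The table's column of means and the 5 columns of the authors' own comparison were not used.

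Groups were compared with limma 3.58.1 (R 4.3.3) on log2(value + 1) with a variance trend, for miRNAs with a mean of at least 10 among the samples of the fit. Tissue comparisons used all feeding groups, and feeding groups were compared within a tissue. Ratios and relations were tested by permutation in Python 3.11.15 (scipy 1.17.1; 100000 resamples, or exact where a group had fewer than 10 values). The fits were tested on simulated data. Alternatives were a pseudocount of 10, no filter, rescaling each library to a sum of 1000000, milk replacer samples only, leaving out each library, and the label number as a block. Rescaling together with another choice, 1 row per group of copies, deviations within feeding groups, and leaving out libraries in the tissue difference were added after the data were seen. Named miRNAs are the members, their let-7 cluster neighbours, miR-10a and miR-10b, and the 2 miRNAs most like each member. The members, the lists and the tests were chosen with earlier results of these data known. Of the 19 groups of gene copies (42 names) 1 row each was counted. No pair of libraries of 1 group was alike within counting error (109 pairs, smallest chi-square per degree of freedom 65.3). RefSeq (ARS-UCD2.0) served for the order of hairpins only.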

Additional observations from a re-analysis of the deposited data

Results flagged for a closer look

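Single libraries far from the rest of their group were looked for in 48 sets of values, 6 members in the 8 groups of 4 to 6 libraries, and 2 were found. About 1 in 20 such sets is expected by chance. Both were miR-100. In parenchyma with restricted feeding, replicate 10 had a miR-100 value of 25013, below the other 5 libraries at 38060 to 41238. In the liver with ad libitum feeding, replicate 6 had 54930, above the other 5 libraries at 31413 to 40183. The 3 control parenchyma libraries were too few for this check.

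The difference between milk replacer and control in miR-100 differed between the 3 tissues (moderated F test, adjusted p = 0.0457), at log2 differences of 0.86 in parenchyma, 0.14 in the fat pad and 0.23 in the liver. Without control parenchyma replicate 18 the adjusted p was 0.744, and over all 48 fits that left out 1 library it was between 0.000727 and 0.744, with the call lost in 26. Without that library the same test called miR-125b-2 instead (adjusted p = 0.000132).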

How the results depend on the processing

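Results below are log2 differences or counts of the 6 members called by limma, and their causes were not tested. The share of all miRNAs called was not counted under these alternatives, so the counts of members cannot be set against it. Rescaling also moved the median log2 difference of all miRNAs, from 0.41 to 0.77 between parenchyma and fat pad. Rescaling each library to a sum of 1000000, between parenchyma and fat pad, left 3 members called in place of 5 and 0 lower in place of 3, with or without the replicate block, and with milk replacer samples only 4 were higher in place of 2 and 0 lower. The value of miR-100 there became 0.056 (0.039 with the block, 0.22 with milk replacer samples only) and that of miR-99a-5p 0.057 (0.012 and 0.11). miR-100 in parenchyma against liver became 0.48 (0.46 and 0.72). Rescaling also gave 0.13 for miR-99b between milk replacer and control in parenchyma, 1 member called in place of 0 in the same comparison of the fat pad, 0.060 and 0.089 for miR-99a-5p and miR-99b between ad libitum and restricted feeding in the liver, and -0.062 and -0.074 for miR-125a and miR-99b between milk replacer and control there. None of these liver values was called. With no filter on low values, 1 member in place of 2 was called between milk replacer and control in parenchyma, and 0 in place of 1 for its difference between tissues. With only the ad libitum and restricted samples fitted, 2 members in place of 1 were called in the fat pad. The log2 ratio of miR-99a-5p to miR-100 between parenchyma and fat pad was -0.11 with milk replacer samples only.

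Leaving out 1 library at a time gave 1 to 2 members called higher in parenchyma when set against the fat pad, 1 to 2 called between milk replacer and control in parenchyma, 0 to 1 in the fat pad and 0 to 2 for the tissue difference, and 1 to 2 called between ad libitum and restricted feeding in the fat pad. Values that changed sign in such fits ran as follows. Between ad libitum and restricted feeding in parenchyma, miR-100 was at -0.022 to 0.16, miR-125a at -0.017 to 0.33 and miR-99a-3p at -0.16 to 0.0044. In the fat pad miR-99b was at -0.036 to 0.10. In the liver miR-100 was at -0.038 to 0.12, miR-99a-3p at -0.13 to 0.28, miR-99a-5p at -0.27 to 0.077 and miR-99b at -0.18 to 0.0012. Between milk replacer and control in parenchyma, miR-125b-2 was at -0.90 to 0.53, miR-99a-5p at -0.092 to 0.62 and miR-99b at -0.55 to 0.032, and in the fat pad miR-99b was at -0.032 to 0.041. In this comparison of parenchyma each low end came without control replicate 18 and each high end without control replicate 1 or 2.

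Whether the label numbers mark the same animals is not given in the labels, and the correlations did not settle it, so the numbers were not used as pairs. Each number that recurred had the same feeding label in all its tissues. The ratio tests between tissues were not repeated with the number as a block. Deviations of same-numbered samples correlated at -0.0846 to 0.463 between parenchyma and fat pad, -0.133 to 0.357 between parenchyma and liver and -0.0679 to 0.262 between fat pad and liver. They were over 0.1 in 8 of 14, 5 of 15 and 9 of 16 pairs, and 3, 3 and 5 samples correlated best with their own number. With the replicate block the 5 calls between parenchyma and fat pad were the same, at -0.44 for miR-99a-5p, -0.41 for miR-100, -0.58 for miR-125b-2, 0.41 for miR-99b and 0.47 for miR-99a-3p, and miR-125a stood at 0.11 (adjusted p = 0.392). The liver libraries were the shallowest, which limits the precision of miR-99a-3p there.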
